A study of Mus musculus with 9 samples.

Results

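The proteins that coat lipid droplets and the machinery of lipolysis were followed as 10 genes in mouse liver: the perilipins Plin2, Plin3, Plin4 and Plin5, the CIDE proteins Cidea, Cideb and Cidec, the lipase Pnpla2, its activator Abhd5 and its inhibitor G0s2. Members were all non-control probes of the array that carry one of these gene names. They came to 15 probes of 10 genes, out of 56605 probes of 37074 gene names on the array.

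RNA of whole liver from male mice was hybridised to 9 one-colour Agilent arrays, 3 per group. AAV-V mice received an adeno-associated virus (AAV) without GP73 and a normal diet. AAV-GP73 mice received an AAV that encodes mouse GP73, a Golgi protein, on the same diet. AAV-V HFD mice received the AAV-V virus and a high-fat diet. All 9 livers therefore carry an AAV, and all are labelled 12 months. The age field gives this as the age, while the sample descriptions and the study's results text count it from the AAV injection. The study's methods name repeated AAV injections and a shorter time on the high-fat diet than its results text does. The strain in the study's methods is C57BL/6N, and the promoter that drives GP73 is not given in the sources used here. The 3 samples of a group are numbered as replicates, and no label says that each is a separate animal, so the p-values measure the spread between these samples only.

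A lipid droplet is a core of triglyceride and cholesteryl ester under a single layer of phospholipid, and its surface proteins decide how fast the core is broken down. Perilipins cover the surface and restrain lipases. Pnpla2 (ATGL) removes the first fatty acid from a triglyceride, Abhd5 (CGI-58) activates it and G0s2 inhibits it. Plin5 is known for tying droplets to mitochondria in oxidative tissues, and Plin2 is the perilipin that covers most droplets in hepatocytes. CIDE proteins act where droplets touch and pass lipid from the smaller to the larger, and Cideb, the liver's own member, also works in the loading of VLDL. In bulk RNA, a change in the number of cells of a type and a change in RNA per cell cannot be told apart.

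The arrays set what could be measured. Of the non-control spots, 10.2 to 10.7% passed as well above background in AAV-V, 16.0 to 18.4% on the AAV-GP73 arrays and 13.8 to 16.7% on the AAV-V HFD arrays. The median processed signal of the 2667 probes detected on all 9 arrays was 33.1 to 38.7 on AAV-V arrays, 104 to 129 on AAV-GP73 arrays and 76.4 to 124 on AAV-V HFD arrays. The mean log2 signal of the spike-in controls was 10.38 to 10.92, 10.42 to 10.49 and 10.49 to 10.87 in the same order, so the AAV-V arrays were dimmer in liver RNA and not in the spike-ins. AAV-V and AAV-GP73 shared slide 1 and AAV-V HFD lay on slide 2, so diet and slide cannot be told apart. In AAV-GP73 against AAV-V HFD virus, diet and slide differ together and cannot be told apart either. Golm1, which encodes GP73, had no probe well above background on any array, and the labels could not be checked with it. All 9 hepatocyte markers on the list were detected on every AAV-V and AAV-GP73 array, and 8 of them on every AAV-V HFD array.

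Levels are given as scaled log2 signal: the log2 processed signal, moved on each array by a constant that made the 75th percentile equal, taken over the probes that all 9 arrays detected. Because the AAV-V arrays were dimmer, this shift placed the lowest detected signal at 3.77 to 3.94 on the AAV-V arrays, against 1.85 to 2.49 on AAV-GP73 arrays and 2.04 to 2.81 on AAV-V HFD arrays. A member not detected in AAV-V thus has only an upper bound there. For a probe detected on 3 arrays of a group and on none of another, a least fold was computed by setting each dark array to its lowest detected signal, or to the probe's own value if that was higher. A probe entered the limma test if 1 group or more had it detected on every array, and it was called at a change of 2-fold or more and an adjusted p under 0.05. The test was made on 6591 probes, among them 7 member probes of 6 genes. The other 8 member probes were not tested. A member probe could enter through the group in which it was bright, so counts over the members tested do not describe all members.

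Several genes had more than 1 probe, and for Plin2 and Cideb the probes differed in what they saw. The first 30 bases of the 60-base probes are shown for the genes with a tested and a second probe, because these sequences decide which part of the transcript was read. The files give positions on mm9 and in the transcript, and no exon or UTR annotation of mm9 was used here.
Plin2 probe at base 91: ctcgtccctcagctctcctgttaggcgtct
Plin2 probe at base 1449: ctggccagatgaccccttttgctgtattga
Plin5 probe at base 1855: gctggaggaagacctggtgcccacatcatc
Plin5 probe at base 1931: tccagagactcaattgctttgctgtttgtg
Cideb probe at base 52: ttatacaaaaaagcaagaacaacagagaag
Cideb probe at base 1063: ggtttttactgacgcctacccctaagatcc
The Plin2 probes lie on the minus strand of chromosome 4, at 86302469 to 86302475 (base 91, for which the file gives a span of 7 bases) and at 86302847 to 86302906 (base 1449). For the probe at base 91 the position and the base conflict, since on this strand the lower base should have the higher coordinate. The Plin5 probes lie next to each other on the minus strand of chromosome 17, at 56251101 to 56251160 and 56251025 to 56251084. The Cideb probes lie on the minus strand of chromosome 14, at 56377150 to 56377209 (base 52) and 56372942 to 56373001 (base 1063). The GC content was 53.3% and 41.7% for the Plin2 probes, 55.0% and 40.0% for the Plin5 probes and 45.0% and 51.7% for the Cideb probes, in the order shown.

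Detection of the members was rarest in AAV-V, whose arrays detected the fewest spots, and the treated groups overlapped in it. On every AAV-V array 1 of the 15 member probes was well above background, the Cideb probe at base 1063. On the AAV-GP73 arrays 7, 7 and 10 member probes were detected, and on the AAV-V HFD arrays 8, 9 and 5. Detection on all 3 arrays held for 6 genes in AAV-GP73 (Plin2, Plin3, Plin5, Cideb, G0s2 and Pnpla2) and for 4 in AAV-V HFD (Plin2, Plin3, Plin5 and Cideb). The array of AAV-V HFD replicate 3, with 5 member probes, also had the lowest share of detected spots of its group (13.8%).

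**Figure D1:**
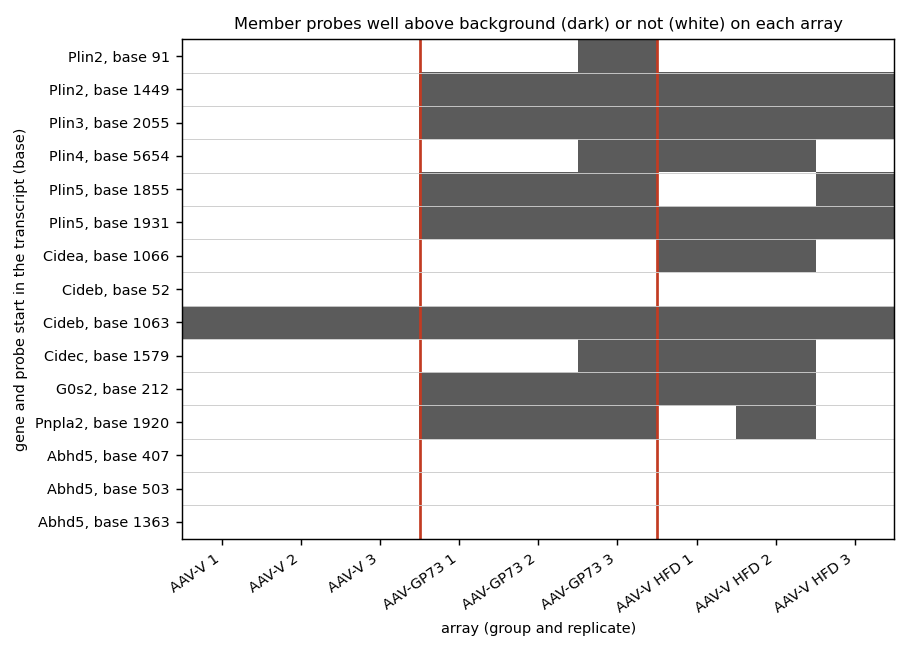
Each row is a member probe (gene and first base of the probe in the transcript) and each column an array, dark where Feature Extraction marked the spot as well above background and white where it did not; red lines separate the groups. AAV-V arrays are dark in the row of the Cideb probe at base 1063 and in no other, and Cidea is dark on AAV-V HFD replicates 1 and 2 alone.

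Plin2, the main perilipin of hepatocyte droplets, had the largest fitted change of the tested members in both comparisons with AAV-V, and it was detected on all arrays of both treated groups. Its probe at base 1449 had processed signals of 4.22, 1.61 and 2.15 on the AAV-V arrays, none of them above background, of 199, 142 and 309.8 in AAV-GP73, and of 39.1, 89.1 and 12.6 in AAV-V HFD. As scaled log2 signals these were 3.09, 1.79 and 1.98, then 7.22, 6.71 and 7.51, then 4.53, 5.89 and 3.63. All AAV-GP73 arrays lay above all AAV-V HFD arrays and above the lowest detected signal of AAV-V, while AAV-V HFD replicate 3 lay below it. The fitted change was 4.86 ± 0.52 on the log2 scale (SE, n = 3 per group, adjusted p = 6.36e-05 in limma) for AAV-GP73 against AAV-V and 2.40 ± 0.52 (adjusted p = 0.00323 in limma) for AAV-V HFD against AAV-V. Since AAV-V has only a bound, the measured statement is at least 9.78-fold higher in AAV-GP73 and at least 1.77-fold higher in AAV-V HFD. The least folds under the other scalings were 10.2 to 31.4 for AAV-GP73 and 1.97 to 4.48 for AAV-V HFD. AAV-GP73 against AAV-V HFD was measured on both sides and differed by 2.46 ± 0.52 (SE), a fold of 5.51 with a 95% interval of 2.50 to 12.2. That difference had an adjusted p of 0.0293 in limma and passed the test under only 11 of 21 alternatives, with adjusted p between 0.00387 and 0.273. It missed the threshold when any 1 AAV-GP73 array was left out (adjusted p of 0.0633 to 0.151 in limma), when AAV-V HFD replicate 1 (0.0904) or replicate 3 (0.0773) was left out, and with the replicate number as a block (0.0537).

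The Plin2 probe at base 91 did not show this pattern. Its scaled log2 signals were 1.68, 1.74 and 1.85 in AAV-V, 2.32, 1.47 and 2.75 in AAV-GP73 and 1.34, 0.23 and 0.72 in AAV-V HFD. It was above background on AAV-GP73 replicate 3 and on no other array, so it was not tested and gives no second measurement of Plin2.

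**Figure D2:**
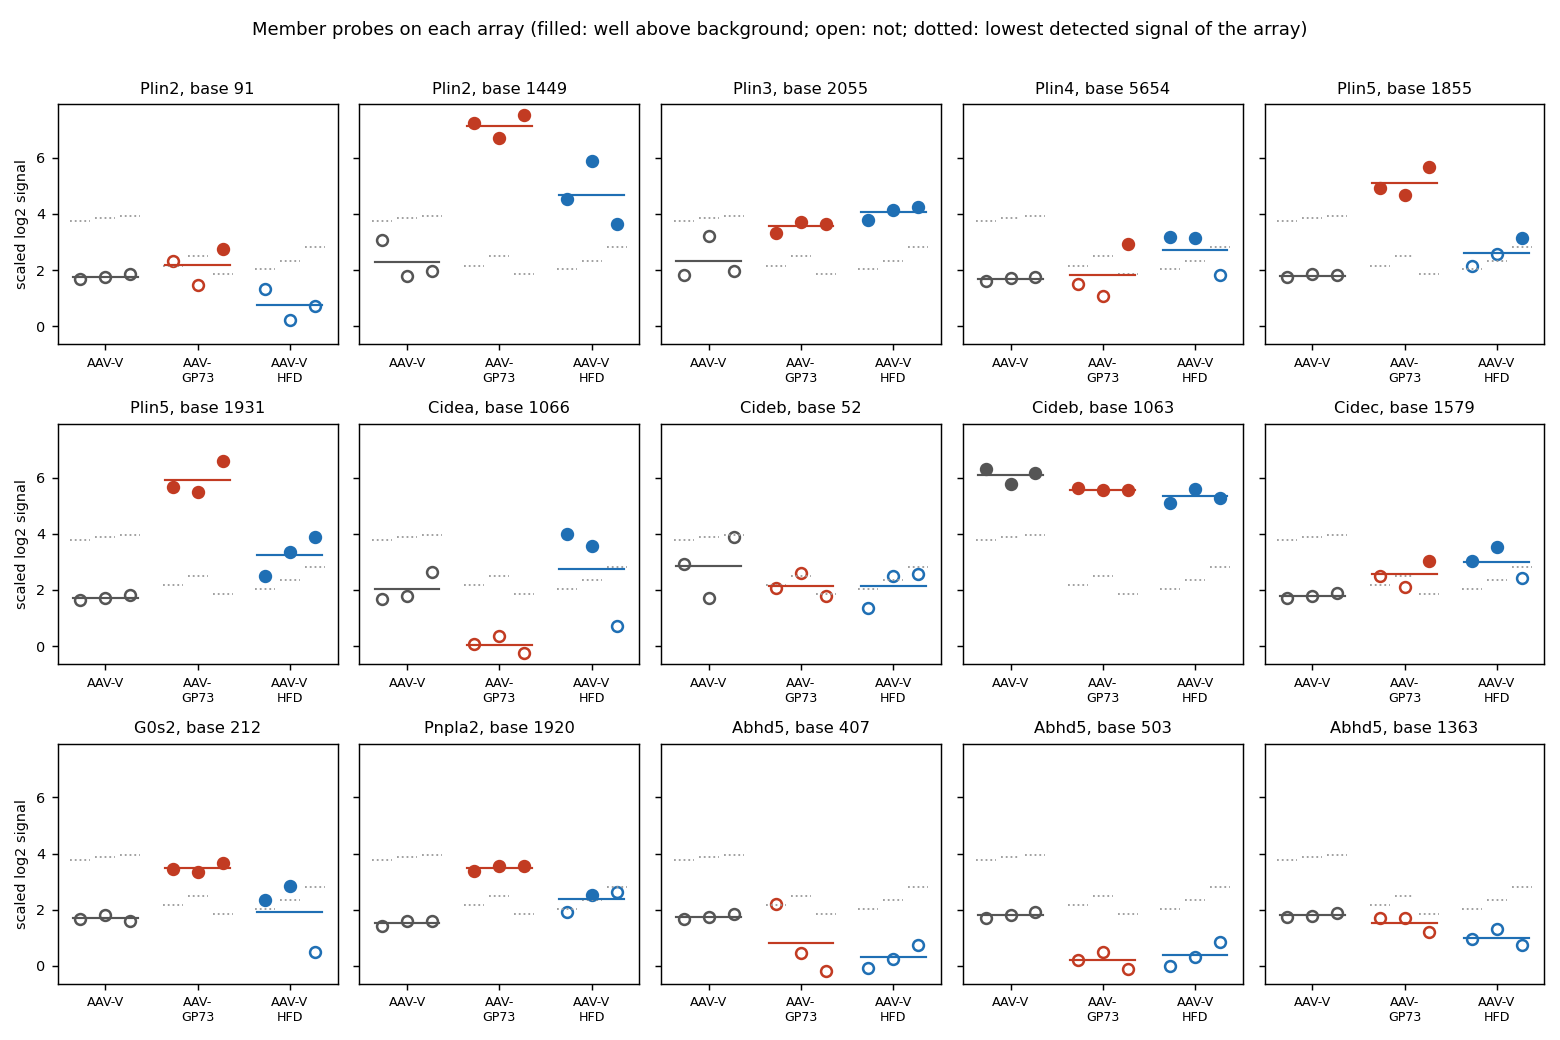
Scaled log2 signal (y axis) of each member probe on the 9 arrays, 1 panel per probe named by gene and first base in the transcript. Filled points were well above background, open points were not, horizontal lines are group means and dotted lines the lowest detected signal of each array. Plin2 at base 1449 and both Plin5 probes lie highest on the AAV-GP73 arrays, at 6.71 to 7.51 for Plin2.

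Plin5, the perilipin that tethers droplets to mitochondria, was read by 2 probes that gave the same order of groups. At base 1931 the processed signals were 1.53, 1.51 and 1.91 in AAV-V, 67.0, 60.6 and 163 in AAV-GP73 and 9.61, 15.1 and 15.0 in AAV-V HFD. The scaled log2 signals were 1.63, 1.70 and 1.81, then 5.65, 5.48 and 6.58, then 2.51, 3.33 and 3.88. All AAV-GP73 arrays lay above all AAV-V HFD arrays, and AAV-V was undetected. At base 1855 they were 1.74, 1.87 and 1.81 in AAV-V, 4.91, 4.67 and 5.68 in AAV-GP73, and 2.16, 2.57 and 3.14 in AAV-V HFD, of which replicate 3 alone was above background.

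Against AAV-V, the fitted log2 changes of Plin5 in AAV-GP73 were 3.28 ± 0.34 (base 1855, adjusted p = 5.28e-05 in limma) and 4.19 ± 0.39 (base 1931, adjusted p = 2.94e-05 in limma). The least folds were 2.34 and 4.13, and 2.36 to 13.3 under the other scalings. In the high-fat livers the change was 1.53 ± 0.39 at base 1931 (adjusted p = 0.00687 in limma), and at base 1855 it was 0.82 ± 0.34 and missed both thresholds (adjusted p = 0.0584 in limma). No fold above 1 over AAV-V was secured for AAV-V HFD at base 1931 in the main scaling or with quantile normalization, while the least folds were 1.26 with the 75th percentile of all probes and 1.65 with the spike-ins. AAV-GP73 exceeded AAV-V HFD by 2.46 ± 0.34 (base 1855, adjusted p = 0.00336 in limma, with 1 of 3 AAV-V HFD arrays above background) and by 2.66 ± 0.39 (base 1931, adjusted p = 0.00513 in limma). At base 1931 the fold was 6.34, with a 95% interval of 3.54 to 11.4. That call was lost under 1 of 21 alternatives, the methods' t-test after adjustment, and the call at base 1855 under 2 of 20, the same test and normexp. The 2 probes read the same RNA and are not independent of each other. The study's text names Plin5 among the genes affected by GP73 alone on these arrays. Here Plin5 at base 1931 was also called higher in AAV-V HFD than in AAV-V, in limma and by the methods' t-test without adjustment. With the authors' log2 values the probe at base 1855 was called higher too (2.26, adjusted p = 0.000762 in limma). The members were chosen with earlier results of these data known, so the calls of Plin2 and Plin5 here are not independent evidence.

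Plin3, a perilipin that moves from the cytosol onto new droplets, was called higher than in AAV-V in both treated groups. Its probe at base 2055 (chromosome 17, 56418429 to 56418488, minus strand) had scaled log2 signals of 1.82, 3.20 and 1.95 in AAV-V, 3.33, 3.72 and 3.65 in AAV-GP73 and 3.77, 4.15 and 4.25 in AAV-V HFD. All AAV-V HFD arrays lay above all AAV-GP73 arrays. AAV-V was undetected, and all AAV-GP73 arrays lay below its lowest detected signals. The fitted changes against AAV-V were 1.24 ± 0.36 (adjusted p = 0.0114 in limma) for AAV-GP73 and 1.73 ± 0.36 (adjusted p = 0.00269 in limma) for AAV-V HFD. The least fold was 1.15 for AAV-V HFD, and 1.27 to 2.90 under the other scalings. For AAV-GP73 no fold above 1 was secured in the main scaling or with quantile normalization, and the least folds were 1.63 and 2.63 with the 75th percentile of all probes and with the spike-ins. Without AAV-V replicate 1 the change in AAV-GP73 was 0.99 and under the fold required. AAV-GP73 minus AAV-V HFD was -0.49 ± 0.36 (adjusted p = 0.552 in limma), with a 95% interval of -1.28 to 0.30, and it reached 0.042 with normexp. Plin3 was thus the tested perilipin with no call between the treated groups, in contrast to Plin5. The difference between the genes was not tested.

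Plin4, a perilipin best known from adipocytes and muscle, was detected on AAV-GP73 replicate 3 and on AAV-V HFD replicates 1 and 2, with scaled log2 signals of 2.94, 3.19 and 3.13 there. The remaining arrays lay between 1.08 and 1.82 and were not above background. It was not tested.

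Among the CIDE proteins, Cideb was detected in all livers and was the member detected in AAV-V. The probe at base 1063 had processed signals of 39.1, 25.6 and 39.0 in AAV-V, 65.1, 63.8 and 79.2 in AAV-GP73 and 57.9, 73.2 and 39.7 in AAV-V HFD. The scaled log2 signals were 6.30, 5.78 and 6.16, then 5.61, 5.55 and 5.54, then 5.10, 5.61 and 5.28. AAV-V thus had the lowest mean before scaling and the highest after it. In the main scaling it was not called: the changes were -0.51 ± 0.27 for AAV-GP73 against AAV-V (adjusted p = 0.111 in limma, 95% interval -1.09 to 0.07), -0.75 ± 0.27 for AAV-V HFD against AAV-V (adjusted p = 0.0326 in limma, under 2-fold) and 0.24 ± 0.27 for AAV-GP73 against AAV-V HFD (adjusted p = 0.697 in limma, 95% interval -0.34 to 0.82). The sign against AAV-V depended on the scaling. It was 0.48 and 0.20 when all probes set the 75th percentile and 1.17 and 0.58 when the spike-ins did, for AAV-GP73 and AAV-V HFD in turn. Cideb was called higher in AAV-GP73 with the spike-ins (adjusted p = 0.00328 in limma), which made 7 of 7 member probes called, and lower in AAV-V HFD with the authors' log2 values (-1.10, adjusted p = 0.00971 in limma). The Cideb probe at base 52 was above background on no array.

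Cidea and Cidec, CIDE proteins of brown and white fat that also appear in fatty liver, were detected chiefly in AAV-V HFD. Cidea (1 probe, chromosome 18) had scaled log2 signals of 3.99 and 3.56 on AAV-V HFD replicates 1 and 2, both above background, and 0.70 on replicate 3. It was not above background on any AAV-V or AAV-GP73 array, where its values have no order. Cidec (base 1579, chromosome 6, 113374693 to 113374752, minus strand) had 3.04 and 3.54 on the same 2 arrays and 2.42 on replicate 3. In AAV-GP73 it had 2.50, 2.12 and 3.03, of which replicate 3 alone was above background, and in AAV-V 1.70, 1.79 and 1.88. Neither gene was tested, because no group had all arrays detected.

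AAV-V HFD replicates 1 and 2 were also the arrays on which an adipocyte marker appeared. Cfd (adipsin) had processed signals of 10.8 and 24.5 there and 1.48 on replicate 3 at 1 of its probes. Replicate 3 had the lowest share of detected spots of its group (13.8%), and some dim genes of other lists also fell there. Ldah had 20.4, 14.3 and 3.30 on the AAV-V HFD arrays and Nceh1 17.7, 13.6 and 3.11, while Rab18 was detected on all 3. Of the 6 adipocyte markers, Adipoq, Retn, Lep and Plin1 were never above background, and Fabp4, also expressed by macrophages and endothelium, was not called. The summed scaled signal of the list was 46.2 to 60.8 in AAV-V, 26.7 to 40.6 in AAV-GP73 and 26.9 to 57.2 in AAV-V HFD. Most probes of the list were undetected and the scaling raised the floor of AAV-V, so these sums do not compare fat cell content. The part of fat cells in the signals of Cidea, Cidec and Plin4 was not tested.

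When AAV-V HFD replicate 3 was left out, Plin4, Cidea and Cidec entered the test only through the remaining AAV-V HFD arrays, on which they were high. Their fitted log2 changes in AAV-V HFD against AAV-V were 1.47 ± 0.47, 1.74 ± 0.36 and 1.50 ± 0.34, and 6 of 10 member probes were called higher (25.4% of 7011 probes), with AAV-V undetected for all but Cideb. On the scale of all 9 arrays, the signals of these genes lay below the lowest detected signals of AAV-V, apart from Cidea on replicate 1 (3.99), so these counts carry no weight. Cidea was also called in AAV-GP73 against AAV-V in this setting, at -1.97 (adjusted p = 0.000662 in limma), where it was undetected on all arrays of both groups and has no order. In AAV-GP73 against AAV-V HFD it was called lower at -3.71 (adjusted p = 0.000655 in limma), again in the test only through the AAV-V HFD arrays on which it was high.

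The lipase and its inhibitor were both detected on every AAV-GP73 array. Pnpla2 (base 1920, chromosome 7, 148645928 to 148645987, plus strand), the rate-limiting triglyceride lipase, had scaled log2 signals of 1.43, 1.58 and 1.61 in AAV-V, 3.37, 3.55 and 3.57 in AAV-GP73 and 1.94, 2.53 and 2.63 in AAV-V HFD, of which replicate 2 alone was above background. All AAV-GP73 arrays lay above all AAV-V HFD arrays but below the lowest detected signals of AAV-V. The fitted change in AAV-GP73 was 1.96 ± 0.27 (adjusted p = 0.000175 in limma) against AAV-V. In AAV-V HFD against AAV-V it was 0.83 ± 0.27 and stayed under 2-fold (adjusted p = 0.0235 in limma). The fitted change against AAV-V HFD was 1.13 ± 0.27 (adjusted p = 0.0491 in limma), a value that rests on 2 undetected AAV-V HFD arrays, and this call was lost under 18 of 21 alternatives. The omission of any 1 of the 9 arrays was among them, with adjusted p of 0.0552 to 0.21 in limma.

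G0s2 (base 212, chromosome 1, 195098925 to 195098984, minus strand), the inhibitor of Pnpla2, had 1.68, 1.79 and 1.61 in AAV-V, 3.46, 3.33 and 3.65 in AAV-GP73 and 2.36, 2.85 and 0.51 in AAV-V HFD. The AAV-V HFD arrays were split, with replicates 1 and 2 above background and replicate 3 below all AAV-V arrays. The change was 1.79 ± 0.48 in AAV-GP73 against AAV-V (adjusted p = 0.00714 in limma), 0.21 ± 0.48 in AAV-V HFD against AAV-V (adjusted p = 0.728 in limma) and 1.58 ± 0.48 in AAV-GP73 against AAV-V HFD (adjusted p = 0.113 in limma, 95% interval 0.53 to 2.62). The last of these rests on the undetected replicate 3: it was 0.89 without that array (adjusted p = 0.174 in limma) and passed the test at 2.05 without replicate 2 (adjusted p = 0.0463 in limma). For both Pnpla2 and G0s2 no fold above 1 over AAV-V was secured in the main scaling, because their mean AAV-GP73 signal, though detected, lay below the lowest detected signal of AAV-V. Scaling by all probes or by the spike-ins, which places AAV-V lower, gave least folds of 1.54 to 2.50.

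Abhd5, the activator of Pnpla2, had 3 probes on chromosome 9 and none was above background on any array. Its processed signals lay between 1.50 and 6.08. Its level was therefore not measured in these livers, and no ratio to Pnpla2 can be given.

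Counted together, 6 of the 7 member probes tested (5 genes) were called higher in AAV-GP73 than in AAV-V and none lower. Over all probes tested 33.9% were called higher and 17.9% lower. The 6 probes called were undetected on every AAV-V array. They entered the test only through treated groups in which they were bright, which favours calls of higher. For Plin3, G0s2 and Pnpla2 no fold above 1 over AAV-V was secured in the main scaling. Without adjustment, at p under 0.05, limma placed 6 of the 7 member probes higher and 0 lower, and the methods' t-test 5 higher and 1, Cideb, lower. The median change of the 7 probes was 1.96 against 0.64 over all 6591 probes tested, and relative to that median Plin2 lay at 4.23, the Plin5 probes at 2.64 and 3.56, Pnpla2 at 1.32, G0s2 at 1.15, Plin3 at 0.61 and Cideb at -1.15. The background moved with the scaling. Of all calls 65.4% were higher in the main setting, 91.3% with the 75th percentile of all probes, 98.2% with the spike-ins and 17.0% with normexp. They were 34.3% among the probes detected on all 9 arrays, where the median change was -0.11, and 5.01% with no filter on dim probes.

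In AAV-V HFD against AAV-V, 3 of the 7 probes (Plin2, Plin3 and Plin5 at base 1931) were called higher and none lower, against 25.0% higher and 16.9% lower over all probes tested. At an unadjusted p under 0.05 limma placed 5 higher and 1, Cideb, lower, and the methods' t-test gave the same counts. The median change of the 7 was 0.83 against 0.41 over all probes tested. Both comparisons share the AAV-V arrays, on which the 3 probes called were undetected. These too entered the test only through treated groups in which they were bright. For Plin5 at base 1931 no fold above 1 over AAV-V was secured in the main scaling. Of all calls 59.6% were higher in the main setting, 95.2% with the 75th percentile of all probes, 98.2% with the spike-ins, 71.5% with quantile normalization and 8.28% with normexp. They were 29.2% among the probes detected on all 9 arrays, where the median change was -0.26, and 3.86% with no filter.

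AAV-GP73 against AAV-V HFD is the comparison with detection on every array of both groups for 4 member probes: Plin2, Plin3, Plin5 at base 1931 and Cideb. Of the 7 probes tested, 4 of 3 genes were called higher in AAV-GP73, namely Plin2, both Plin5 probes and Pnpla2. None was called lower, and at an unadjusted p under 0.05 also 0 were lower in limma and in the methods' t-test, which placed 5 and 4 higher. Over all probes tested 2.08% were called higher and 0.592% lower, 77.8% of the calls being higher, 94.7% with the spike-ins and 66.2% among the probes detected on all 9 arrays. The median change was 1.58 for the 7 probes and 0.10 over all probes tested. Plin5 at base 1855, Pnpla2 and G0s2 entered the test only through AAV-GP73, in which they were bright. The calls of the first 2 and the median, which is the value of G0s2, therefore do not describe the members. Of the 4 probes detected on every array of both groups, Plin2 and Plin5 at base 1931 were called.

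**Figure D3:**
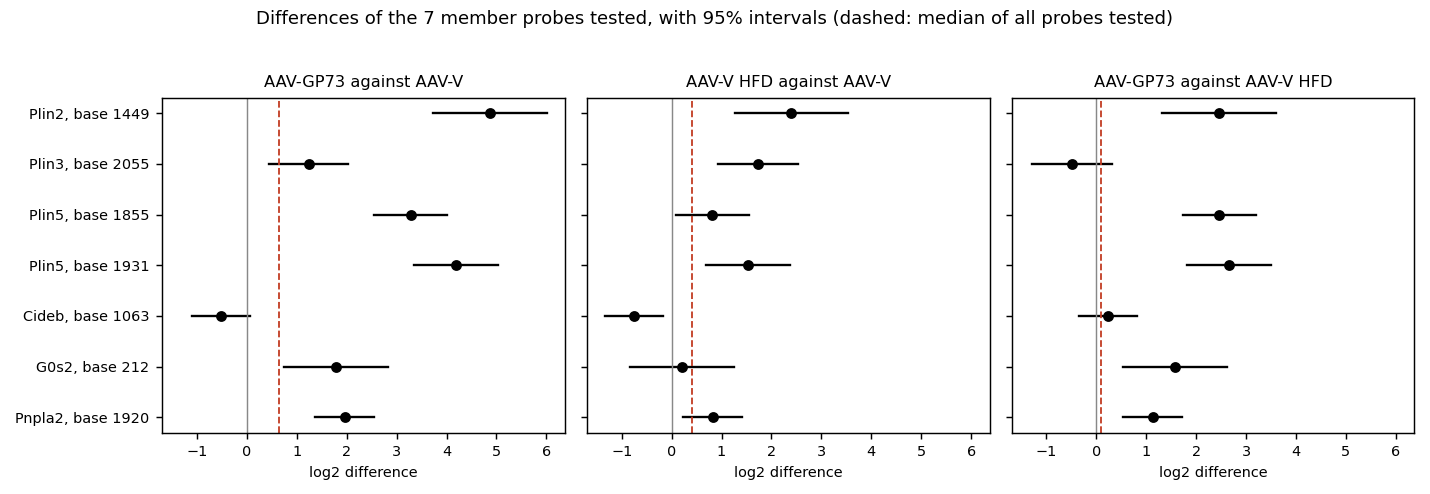
Log2 difference (x axis) of the 7 member probes tested in the 3 comparisons, points with 95% intervals from the limma fit, and the median of all 6591 probes tested as a dashed line. In AAV-GP73 against AAV-V HFD the intervals of Plin2 and of both Plin5 probes lie above 1, while those of Plin3 and Cideb include 0; against AAV-V the values other than Cideb's rest on undetected AAV-V arrays.

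The sizes, and for several members the sign, depended on how the arrays were put on 1 scale. Among these was Cideb, the member detected on all arrays. Normexp with an offset of 50 lifts all dim signals towards a common floor, and 11 of the 15 member probes never exceeded a processed signal of 50. With it no member probe was called against AAV-V. Plin2 kept a higher value in AAV-GP73 (0.94, adjusted p = 0.0023 in limma) and so did Plin5 at base 1931 (0.36, adjusted p = 0.148 in limma), while Plin3, G0s2, Pnpla2 and Plin5 at base 1855 turned to values between -0.61 and -0.067, and all 7 probes were negative in AAV-V HFD, down to -0.94. The contrast of AAV-GP73 with AAV-V HFD held its sign for Plin2 (1.29), Plin5 (0.78 and 1.05), Pnpla2 (0.33), G0s2 (0.36) and Cideb (0.18), and Plin2 and Plin5 at base 1931 were called under it.

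**Figure D4:**
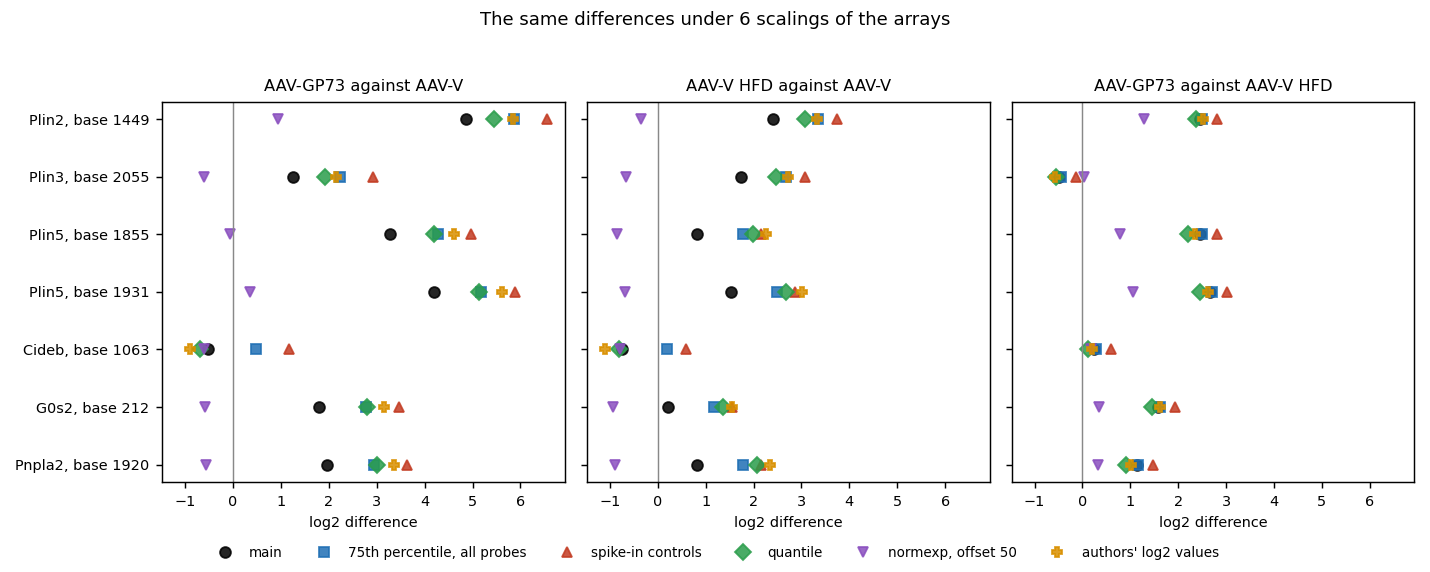
Log2 difference (x axis) of the 7 member probes tested under 6 ways of scaling the arrays, shown by symbol, in the 3 comparisons. Against AAV-V the symbols of a probe spread over several log2 units, from 0.94 to 6.55 for Plin2 in AAV-GP73, while in AAV-GP73 against AAV-V HFD they lie within 1.29 to 2.81 for Plin2.

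The wider lipid droplet machinery was read with lists of other genes. Of 18 other lipid droplet proteins, 10 were never above background and 3 could be tested. Rab18, a small GTPase on droplets, was called higher than in AAV-V by 1.31 in AAV-GP73 (adjusted p = 0.00602 in limma) and by 1.16 in the high-fat livers (adjusted p = 0.014 in limma), but it was undetected in AAV-V and normexp turned the values to -0.54 and -0.68. Its least folds were not above 1 in the main scaling or with quantile normalization, and they were 1.78 and 2.87 in AAV-GP73 and 1.57 and 2.04 in the high-fat livers with the 75th percentile of all probes and with the spike-ins. Ldah, a droplet-associated hydrolase, was not called (0.97 and 0.53). Hsd17b13, a liver droplet enzyme, was at -0.48 in AAV-GP73 and, past the thresholds, at -1.26 in AAV-V HFD (adjusted p = 0.0179 in limma). It was undetected on every AAV-V array, so these values have no measured base, and the call was kept with normexp (-1.02) but lost under the 4 remaining scalings, at -0.81 to 0.076. With the spike-ins it was called higher in AAV-GP73 (1.21). In AAV-GP73 against AAV-V HFD 0 of the 3 were called, also at an unadjusted p under 0.05 in limma and in the methods' t-test. Calls were rare in that comparison, at 2.08% higher and 0.592% lower over all probes tested.

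Of 9 other lipases of neutral lipid, 4 were tested. Mgll, which releases the last fatty acid from monoglyceride downstream of Pnpla2, had processed signals of 2.46, 1.46 and 3.14 in AAV-V, 53.0, 67.5 and 94.5 in AAV-GP73 and 47.2, 55.3 and 9.81 in AAV-V HFD. It was called higher in AAV-GP73 (3.42 ± 0.45, adjusted p = 0.000143 in limma) and AAV-V HFD (2.26 ± 0.45, adjusted p = 0.00204 in limma), with least folds of 3.30 and 1.48, while normexp gave 0.081 and -0.38. Nceh1, a cholesteryl ester hydrolase, was higher in AAV-GP73 (2.06 ± 0.51, adjusted p = 0.00442 in limma) with a least fold of 1.71 (-0.29 with normexp), and at 0.15 in AAV-V HFD (adjusted p = 0.813 in limma). Aadac and Ddhd2 were not called in either comparison. Between AAV-GP73 and AAV-V HFD 0 of the 4 were called, with 2 higher at an unadjusted p under 0.05 in limma and 1 in the methods' t-test. The shares called over all probes tested were 2.08% higher and 0.592% lower there. Lipe and Pnpla3 were not above background in AAV-GP73 or AAV-V HFD.

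Of 11 nuclear receptors and other regulators known to act on these genes, 8 were tested. Ppara, Rxra, Esrra, Nr1h3, Creb3l3 and Cebpa were called higher than in AAV-V in each of the treated groups. Among all 6591 probes tested, the share called higher than in AAV-V was 33.9% with GP73 and 25.0% with the high-fat diet. Apart from Rxra, the tested regulators entered through a treated group in which they were bright, so their calls do not describe the whole list. PPARalpha with its partner RXRalpha drives Plin2, Plin5 and fatty acid oxidation in liver. LXRalpha (Nr1h3) drives lipid synthesis, and CREBH (Creb3l3) is a liver factor of the fasting response. The part of these regulators in the members' values was not tested. The 10 probes tested had a median change of 1.66 (AAV-GP73) and 1.51 (AAV-V HFD), which turned to -0.41 and -0.60 with normexp. Creb3l3, undetected in AAV-V, had the largest fitted change, with scaled log2 signals of 2.59, 2.51 and 1.61 in AAV-V, 5.73, 5.78 and 5.79 in AAV-GP73 and 4.74, 5.03 and 4.46 in AAV-V HFD. Against AAV-V its changes were 3.53 ± 0.31 (adjusted p = 2.37e-05 in limma) and 2.51 ± 0.31 (adjusted p = 0.000288 in limma), with least folds of 3.76 and 1.85, and 0.27 and -0.29 with normexp. In the main scaling no fold above 1 over AAV-V was secured for Esrra, or for Cebpa in AAV-GP73. In AAV-GP73 the least folds with the 75th percentile of all probes and with the spike-ins were 1.97 and 3.17 for Esrra (1.05 with quantile normalization) and 1.20 and 1.94 for Cebpa, and in AAV-V HFD 1.18 and 1.54 for Esrra. Rxra alone was detected on all AAV-V arrays, with 6.06, 5.91 and 5.44 there, 7.40, 7.49 and 7.39 in AAV-GP73 and 7.04, 7.44 and 7.18 in AAV-V HFD. It differed by 1.62 ± 0.27 (adjusted p = 0.000412 in limma) and 1.42 ± 0.27 (adjusted p = 0.00161 in limma), and it stayed above 0 under all 6 scalings, at 0.49 or more. Between AAV-GP73 and AAV-V HFD 0 of the 8 genes were called, with 1 higher at an unadjusted p under 0.05 in limma and 1 in the methods' t-test. Over all probes tested 2.08% were called higher and 0.592% lower in that comparison, so this count does not show that the regulators were alike.

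Pparg, the adipogenic receptor that drives Cidea and Cidec in fatty liver, was not tested. Its probe at base 1562 had processed signals of 11.9 and 23.6 on AAV-V HFD replicates 1 and 2, both above background, and of 2.05 on replicate 3. In AAV-GP73 they were 7.10, 5.99 and 9.55, of which replicate 3 was above background, and in AAV-V 2.52, 1.66 and 1.93. Pparg and Cidea were thus both above background on AAV-V HFD replicates 1 and 2, and in AAV-GP73 Pparg alone was, on 1 array. Replicate 3 was the AAV-V HFD array with the lowest share of detected spots.

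The start regions of Plin2 and Plin5 are shown because these perilipins had the largest fitted changes in AAV-GP73. RefSeq promoters (GRCm38.p6, another build than that of the probes) were found for 9 members, 11 promoters in all. Windows of 280 bases, 250 before the start and 30 after, were searched on both strands for CACGTG (E-box), AGGTCA (nuclear receptor half-site) and TATAA (TATA box), and capitals mark the matches. Plin2 is on the minus strand at chr4:86670030-86670309 and Plin5, the upstream start of a pair, on the minus strand at chr17:56117519-56117798.
Plin2 promoter: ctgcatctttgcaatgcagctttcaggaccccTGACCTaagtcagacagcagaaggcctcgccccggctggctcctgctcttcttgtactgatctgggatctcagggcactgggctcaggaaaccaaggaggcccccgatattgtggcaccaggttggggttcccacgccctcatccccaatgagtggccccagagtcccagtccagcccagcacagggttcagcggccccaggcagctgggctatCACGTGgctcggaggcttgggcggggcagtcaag
Plin5 promoter: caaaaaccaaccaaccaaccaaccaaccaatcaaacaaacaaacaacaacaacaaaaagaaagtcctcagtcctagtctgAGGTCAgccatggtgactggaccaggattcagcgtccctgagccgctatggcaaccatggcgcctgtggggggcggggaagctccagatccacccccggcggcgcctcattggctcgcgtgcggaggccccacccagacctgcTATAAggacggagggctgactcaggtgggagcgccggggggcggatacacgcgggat
Plin2 held a half-site, read on the opposite strand, 218 bases before the start and an E-box 4 bases before it. Plin5 held a half-site 170 bases before the start and a TATA box 27 bases before it. The half-site was in 4 of the 11 member promoters (both of Plin5, Plin2 and Abhd5) and in 15.4% of 32851 promoters of the same length, the E-box in 1 and in 6.79%, and the TATA box in 3 (Plin4, Plin5 and Cideb) and in 24.0%. Plin3, Cidec, G0s2 and Pnpla2 held none of them. Abhd5, which carried a half-site, was not detected. A direct repeat of the half-site with a base between, the form bound by PPARalpha and RXRalpha, was in 0 of the member promoters and in 12 of all (0.0365%). These are matches of letters in a short window.

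Genes whose level over the 9 arrays was most like that of the perilipins, among probes detected on all 9 arrays, are given as a description, since the points share 3 groups, the slides and the scaling. Plin2 at base 1449 ran with Sap18 (Pearson r = 0.958), 2610028H24Rik (0.950) and Aoc2 (0.947). Both Plin5 probes ran most closely with Dcn, which encodes decorin (0.947 at base 1855 and 0.951 at base 1931). Values of Plin2 and Plin5 in AAV-V are not above background, so their correlations rest on the treated arrays and on a floor.

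Markers of other cells moved with the groups as well. Of 4 erythroid markers 3 were tested, and 2 were called higher in AAV-GP73 than in AAV-V and than in AAV-V HFD. These were Hba-a1 and Hba-a2, higher than in AAV-V by 3.85 at an Hba-a1 probe and at the Hba-a2 probe. Both probes were higher than in AAV-V HFD by 3.18. These genes are near-identical copies and their probes may share RNA. The summed scaled signal of the 4 erythroid markers was 401 to 1005 in AAV-V, 3495 to 17457 in AAV-GP73 and 680.1 to 1143 in AAV-V HFD. Among stellate cell markers Dcn was higher (1.20) and Des lower (-2.14) in AAV-GP73 than in AAV-V, with summed signals of 172 to 299 in AAV-V, 172 to 205 in AAV-GP73 and 86.4 to 135 in AAV-V HFD. In AAV-V HFD against AAV-V, Des was called lower (-2.31) and so was Reln (-1.14), which was undetected in both groups (adjusted p = 0.0447 in limma) and lay at -0.19 to 0.19 under 4 other scalings. Clec4g, the 1 tested of 5 sinusoidal endothelial markers, was higher in AAV-GP73 than in AAV-V (2.59). So was Clec4f (1.00), called as 1 of 5 Kupffer cell and macrophage markers tested. Both were undetected in AAV-V and turned to -0.39 and -0.57 with normexp. The summed signal of the endothelial list, in part from undetected probes, was 54.8 to 69.4 in AAV-V, 40.1 to 47.5 in AAV-GP73 and 27.2 to 36.1 in AAV-V HFD. Cd5l, the Kupffer marker detected on all 9 arrays beside Lyz2, was at -0.16, and Lyz2, Marco and Csf1r at 0.85, 0.96 and 0.77, none of them called. Of the 9 hepatocyte markers, Hnf4a (2.46 in AAV-GP73) and both Cyp2e1 probes (1.52 and 1.66) were called higher than in AAV-V in each of the treated groups, Tat (2.25) in AAV-GP73, and Cps1 was called lower (-1.59 and -2.03), which the spike-ins turned to 0.095 in AAV-GP73. Hba-a1, Hba-a2 and Dcn stayed above 0 and Des below 0 in AAV-GP73 against AAV-V under all 6 scalings. The part of these cells in the members' values was not tested.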

How the data were processed

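Agilent Feature Extraction made the intensity values deposited by the authors (processed signal, version 12.0.3.1 per the file headers, 10.7 in the submitters' processing notes), with spatial background subtraction and detrending within each array and no scaling between arrays. The authors also deposited a table of log2 values, whose normalization is not given in the sources used here. All 56605 probe names matched it, and it served as an alternative. RNA was extracted with Trizol and labelled with Cy3. Coordinates are those of mm9 in the files.

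Each array had 98 to 151 spots with a feature outlier flag, which were left out, and 0 saturated spots. Because at most 18.4% of spots were detected, log2 processed signals were aligned at the 75th percentile over the 2667 probes that were well above background on every array. Each probe name was kept by itself. The 6591 probes that a whole group detected were fitted over the 3 groups with limma 3.58.1 (lmFit, eBayes) in R 4.3.3 with data.table (version 1.17.8), with Benjamini-Hochberg adjustment, and called at 2-fold and adjusted p under 0.05. The 3 arrays per group limit the precision. No member probe had a dropped spot.

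All member probes were named. From the 3 lists of related genes, up to 5 with the largest changes against AAV-V were to be named, and by likeness the 3 genes with the highest Pearson r. The likeness of Cideb is not reported here, and of Plin5 the gene shared by both probes is given. The regulators called in both groups are named in full, and Ldah, Aadac, Ddhd2, Lipe, Pnpla3, Pparg and single cell markers were added after their values were seen. The members and lists were chosen with earlier results of these data known. No lymphocyte marker and no cholangiocyte marker could be tested. The fit was also tested on simulated data drawn with the arrays' spread: of 100 probes changed by 3 log2 units between AAV-GP73 and AAV-V 93% were recovered, and of 100 changed by 1.5 units 54%, among 6589 probes. The simulated data had no detection floor, no dimmer group and no scaling step. These shares therefore do not describe members that were undetected in AAV-V. Alternatives were 5 other scalings or value tables, 2 other filters, 1 probe per gene, other fits, the t-test of the methods (2-fold, p under 0.05, without and with adjustment), the replicate number as a block, and leaving out each array.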

Additional observations from a re-analysis of the deposited data

How the results depend on the processing

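Over the 441 values of the 7 member probes under the alternatives, 372 kept their sign and their side of the threshold, 39 lost the call, 13 gained it and 17 changed sign. Of the sign changes, 11 came with normexp: in AAV-GP73 against AAV-V for Plin3 (-0.61), Plin5 at base 1855 (-0.067), G0s2 (-0.58) and Pnpla2 (-0.57), in AAV-V HFD against AAV-V for Plin2 (-0.35), Plin3 (-0.66), both Plin5 probes (-0.85 and -0.69), G0s2 (-0.94) and Pnpla2 (-0.90), and in AAV-GP73 against AAV-V HFD for Plin3 (0.042). Cideb changed sign with the 75th percentile of all probes (0.48 for AAV-GP73, 0.20 for AAV-V HFD) and with the spike-ins (1.17 and 0.58). G0s2 in AAV-V HFD against AAV-V changed sign without AAV-V HFD replicate 1 (-0.014) and replicate 2 (-0.25), and reached 0.90 without replicate 3.

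In AAV-GP73 against AAV-V, where 3416 probes and 6 member probes were called, the counts were 5215 probes with the spike-ins, 893 probes and 0 member probes with normexp, 47055 probes with no filter, and 1250 and 0 when detection on all 9 arrays was required, which leaves Cideb as the member tested. Leaving out 1 array gave 3118 to 3615 probes and 5 to 7 member probes, of which the 7 without AAV-V HFD replicate 3 include Cidea, called lower though undetected in both groups.

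In AAV-V HFD against AAV-V (2767 probes, 3 member probes) the counts were 5 member probes with the 75th percentile of all probes, 4512 and 6 with the spike-ins, 5 member probes with quantile normalization, 966 and 0 with normexp, 6 member probes with the authors' log2 values, 45097 and 6 with no filter, 1086 and 0 with detection on all 9 arrays, and 1695 and 0 with the methods' t-test after adjustment. Leaving out 1 array gave 2414 to 3074 probes and 3 to 6 member probes, with 5 without AAV-V HFD replicate 1 and 6 without replicate 3.

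In AAV-GP73 against AAV-V HFD (176 probes, 4 member probes) the counts were 378 probes with the spike-ins, 48 and 2 with quantile normalization, 49 and 2 with normexp, 27 and 2 with the authors' log2 values, 78 and 2 with no filter, 71 and 0 with detection on all 9 arrays, and 389 probes without and 13 and 0 with adjustment in the methods' t-test. Leaving out 1 array gave 39 to 188 probes and 2 to 4 member probes, of which the 3 without AAV-V HFD replicate 3 include Cidea, called lower. Without AAV-GP73 replicate 1, 2 or 3, 103, 73 and 39 probes were called, and 95 without AAV-V HFD replicate 1, each with 2 member probes.

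Residuals of equal replicate numbers in different groups correlated at -0.105 to 0.167, over 0.1 in 2 of 9 pairs. With 3 arrays per group these values cannot decide whether the numbers pair the samples. With the number as a block, 3413, 2779 and 124 probes and 6, 3 and 2 member probes were called in the 3 comparisons. Signal over background is a limit, since the AAV-V arrays bound all members but Cideb. The cause of these changes was not tested, apart from the filters, which change what is tested by construction.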
